A study of Mus musculus with 123 samples.

Results

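The liver transcriptome of mice that received a high fat diet (HFD) under the photoperiod named Equal light was followed over 1 daily cycle. The arm was taken by its labels and holds 20 libraries, which is 16.3% of those in the series. Livers were collected at 6 zeitgeber times (ZT, hours counted from a daily light signal), with 3 libraries at ZT0, 4 at ZT4, 3 at ZT8, 3 at ZT12, 3 at ZT16 and 4 at ZT20. All 20 libraries share the diet, the photoperiod and the tissue, and differ by label in the time alone. Strain, sex, age, the composition of the diet and the hours of light and dark are not given in the sources used here, and neither is the event from which ZT0 was counted. Nothing in the labels says that replicates came from separate animals, so that every p-value reflects the spread between samples, and this may be technical.

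The mammalian clock is a feedback loop of transcription that runs in nearly every cell. In its positive arm ARNTL (BMAL1) pairs with CLOCK or NPAS2 and switches on genes through E-boxes, among them the repressors of the PER and CRY families, which later silence that pair. The nuclear receptors NR1D1 and NR1D2 (REV-ERB) repress Arntl and Npas2, while ROR receptors activate them, and the proteins DBP, TEF and HLF carry the rhythm to output genes through D-boxes, where NFIL3 competes as a repressor. In the liver this loop and the daily rhythm of feeding together time lipid, bile acid, glucose and amino acid metabolism.

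Reads were counted per gene, and the authors deposited log2 CPM values, the log2 of counts scaled to a common library total after a small prior count. Recovered depth was 16.52 M to 36.27 M reads per library with a median of 23.42 M, where M is the SI prefix mega, and 1 read was worth 0.0428 CPM at the median. The mean depth per time lay between 21.64 ± 1.06 M (SD, n = 3) at ZT0 and 30.77 ± 4.99 M (SD, n = 3) at ZT16. The 7 hepatocyte markers (Alb, Apoa1, Ttr, Serpina1c, Hnf4a, Cps1 and Trf) summed to 91900 to 131000 CPM in each library. Markers of skeletal muscle were uneven: their 13 genes summed to 5.24 to 6.42 CPM in the libraries at ZT8 and reached 218 CPM at ZT4, 238 CPM at ZT16 and 222 CPM at ZT20. The 12 pancreas acinar markers measured summed to 149 CPM in ZT8 replicate 1, to 29.1 CPM in ZT8 replicate 2 and to 28.3 to 63.8 CPM in the libraries at all other times, and ZT8 replicate 3 also lay above that range. Of these 13 muscle and 12 pancreas genes, 0 passed the limma test for a time effect, also with limma-voom. At an unadjusted p under 0.05 the limma count was also 0, beside 4232 of the 14397 genes tested. The part of these markers in other results was not tested.

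Several libraries stood apart from the others at their time, and this bears on every result below. Over the 15 clock genes, ZT16 replicate 2 lay at a root mean square distance of 2.48 log2 units from the other libraries at ZT16 and of 0.516 from those at ZT4, the nearest time. ZT12 replicate 1 lay 1.62 from its own time and 0.773 from ZT4. Another 4 libraries were nearest to a neighbouring time: ZT4 replicate 3 to ZT8, ZT16 replicates 1 and 3 to ZT20, and ZT20 replicate 1 to ZT0. ZT4 replicate 3 lay 1.225 from its own time and 0.438 from ZT8, and it is not part of the pairs left out below. ZT20 replicate 1 lay 1.084 from its own time and 0.859 from ZT0. ZT16 replicates 1 and 3 were each set against a mean that includes ZT16 replicate 2. Their own-time distances (1.06 and 1.57) therefore do not show that replicates 1 and 3 differ from each other. A separate set of libraries followed the GC content of the transcripts. In ZT20 replicate 1 and ZT4 replicate 2 the deviation of a gene from the other libraries at that time fell with GC content, with a correlation across 9961 genes of -0.835 and -0.764, where genes are not independent replicates. All libraries were kept at their labelled time in the results below. Counts are also given without ZT12 replicate 1 and ZT16 replicate 2 (the clock pair), without ZT4 replicate 2 and ZT20 replicate 1 (the GC pair), and after the GC trend was removed. The clock pair was singled out by the clock genes themselves, so that clearer rhythms of clock genes without it follow from that choice. The cause of these differences was not tested.

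**Figure D1:**
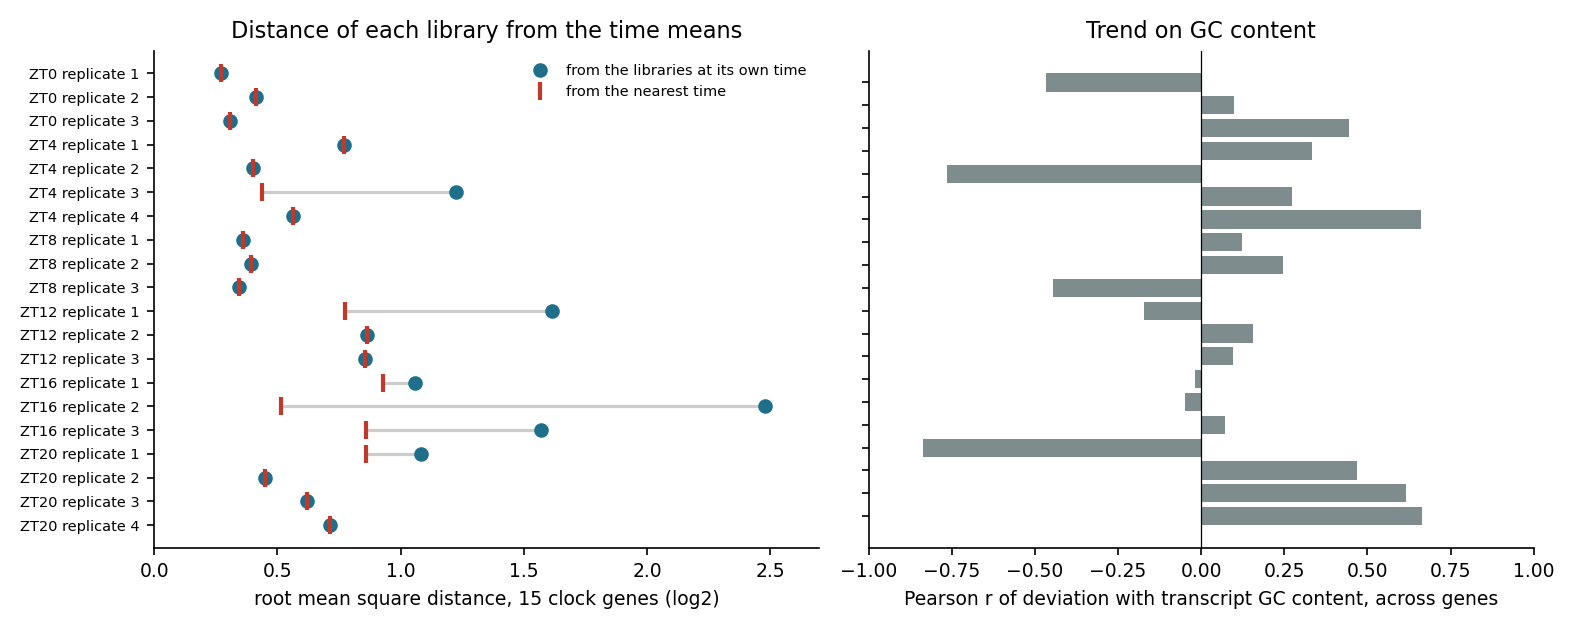
Left, root mean square distance (log2 units) of each library's 15 clock genes from the other libraries at its own time (circle) and from the nearest time (bar). Right, Pearson r between a gene's deviation from the other libraries at that time and its transcript GC content. ZT16 replicate 2 (2.48) and ZT12 replicate 1 (1.62) lie farthest from their own times, and ZT20 replicate 1 (r -0.835) and ZT4 replicate 2 (r -0.764) have the strongest trends.

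Levels at the 6 times were compared with limma, in a model with 1 mean for each of the 36 groups of the series, and only the 6 groups of this arm entered the tests. A gene was called when its adjusted p (Benjamini-Hochberg over 14397 genes) was under 0.05. With the spread estimated over all 36 groups, the 6 time means differed for 1641 genes, which is 11.4% of those tested. A 24 h cosine was called for 2320 genes, or 16.1%, and 1381 genes were called in both. The highest mean of the 1641 genes fell at ZT8 for 418 of them (25.5%), at ZT20 for 374 (22.8%), at ZT0 for 331 (20.2%), at ZT12 for 286 (17.4%), at ZT4 for 184 (11.2%) and at ZT16 for 48 (2.93%). The fitted cosines also had 2 crowded times: 796 of the 2320 rhythmic genes peaked within 2 h of ZT20 and 677 within 2 h of ZT8, against 154 within 2 h of ZT16.

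The number of genes with their highest mean at ZT12 and ZT16 rested on a pair of libraries. Without ZT12 replicate 1 and ZT16 replicate 2 the time effect was called for 2845 genes, with 757 highest at ZT12 and 388 at ZT16, and 1596 of these calls were shared with the 1641. The cosine was then called for 3647 genes, and ZT20 and ZT8 still held the most peaks, with 969 and 845. Without ZT4 replicate 2 and ZT20 replicate 1 the time effect was called for 788 genes, and after the GC trend was removed for 1443. Leaving out ZT20 replicate 4 gave 2477. With the 20 libraries of the arm fitted alone, 231 genes were called. Of these, 214 were among the 1641, which is 13% of the 1641.

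**Figure D2:**
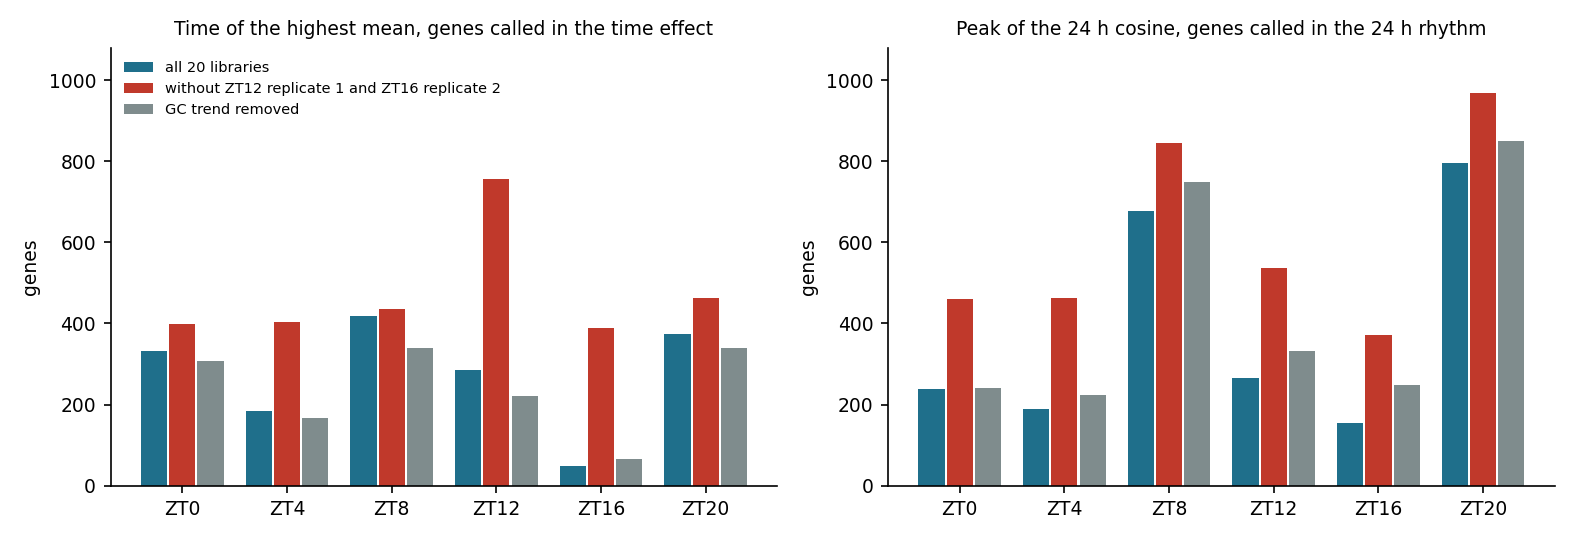
Number of genes (y axis) by the time of the highest mean among genes called in the time effect (left) and by the peak of the 24 h cosine, in bins of 4 h centred on each time, among genes called as rhythmic (right). Without ZT12 replicate 1 and ZT16 replicate 2 the genes highest at ZT12 number 757 in place of 286 and those highest at ZT16 number 388 in place of 48.

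Most cycles were shallow. The range of a called gene, its highest minus its lowest time mean, had a median of 0.749 log2 units, while 526 genes ranged over at least 1 unit (2-fold) and 13 over at least 4 units. The cosine amplitude, from mean to peak, had a median of 0.302 among rhythmic genes and of 0.15 over all genes tested. An amplitude of at least 0.5 was reached by 544 rhythmic genes and of at least 2 by 11. The highest and lowest groups did not overlap in 84.5% of the called genes, against 42% of all genes tested.

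From ZT0 to ZT4 more genes were called than over any other step between neighbouring times. Over it 207 genes rose (1.44% of those tested) and 457 fell (3.17%), or 277 and 383 after each library was centred on its median gene. Between the other neighbouring times limma called 0 genes in either direction, and so did limma-voom on recovered reads. At an unadjusted p under 0.05 these steps held 1409 genes (ZT4 to ZT8), 1176 (ZT8 to ZT12), 721 (ZT12 to ZT16), 1122 (ZT16 to ZT20) and 1907 (ZT20 to ZT0), against 2931 from ZT0 to ZT4, where 5% of the genes tested are 720. The number of genes called over this step depended on single libraries: it was 664 in all, 156 without ZT0 replicate 3, 163 without ZT4 replicate 2, 208 without ZT0 replicate 2, 268 without ZT4 replicate 3 and 1431 without ZT4 replicate 4. Without ZT12 replicate 1 and ZT16 replicate 2, 44 genes rose and 18 fell from ZT8 to ZT12, and 34 rose and 36 fell from ZT12 to ZT16.

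Of the 15 core clock genes, 13 were called in the time effect, against 11.4% of all genes, and the same number was called without either pair of libraries and after the GC trend was removed. Per2 and Hlf were the exceptions. Their highest mean fell at ZT8 for 6 of the 13, at ZT20 for 4, at ZT0 for 2 and at ZT4 for 1.

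Dbp, the D-box activator at the output of the clock, had the widest range of all called genes. It stood at -0.60, -0.58 and -0.74 log2 CPM in the libraries at ZT0, at 5.29, 6.08, 6.87 and 5.78 at ZT4, and at 6.85, 6.45 and 6.69 at ZT8. At ZT12 it stood at 5.29, 5.08 and 4.73, at ZT16 at 1.6, 6.14 and 0.88, and at ZT20 at -0.53, -0.23, 0.76 and 0.66. The 10 libraries from ZT4 to ZT12 lay above all those at ZT0 and ZT20, and at ZT16 only replicate 2 was among them. The means ranged 158-fold, the cosine peaked at 8.8 h with an amplitude of 3.71 (SE 0.356), and the adjusted p of the time effect was 9.04e-12. Dbp (ENSMUSG00000059824) lies on chromosome 7 at 45705088 to 45710203 of build GRCm38, on the plus strand.

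Npas2, the partner of ARNTL that stands in for CLOCK, had the opposite course. It stood at 4.49, 4.78 and 4.71 log2 CPM at ZT0, at 0.45, -0.80, -2.60 and -0.38 at ZT4, at -2.43, -1.73 and -2.94 at ZT8 and at -1.6, -2.96 and -2.95 at ZT12. At ZT16 it stood at 2.51, -0.27 and 2.08, and at ZT20 at 3.91, 4.41, 3.76 and 4.33. All 7 libraries at ZT20 and ZT0 lay above all others. The cosine had an amplitude of 3.99 (SE 0.466), the largest among rhythmic genes, and peaked at 21.4 h. From ZT0 to ZT4 Npas2 fell by 5.5 log2 units (SE 1.11, adjusted p 0.000933). Values near -2.9 are close to the floor of -3.61, so that its range of 144-fold is understated by the prior count.

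Arntl, the core of the positive arm, was high at the same times and less deep. It stood at 5.28, 5.46 and 5.29 log2 CPM at ZT0, at 2.81, 2.17, 0.41 and 2.29 at ZT4, at 0.48, 1.66 and 1.06 at ZT8 and at 3.02, 3.22 and 2.62 at ZT12. At ZT16 it stood at 4.89, 2.71 and 5.18, and at ZT20 at 5.51, 5.54, 5.25 and 5.19. The groups at ZT0 and ZT20 were tight and did not differ beyond their spread, and ZT16 replicate 2 lay within the range of ZT4 and ZT12. Its means ranged 19.8-fold, with a cosine peak at 20 h and an adjusted p of 1.05e-07. Clock, its constant partner, ranged 2.65-fold with a peak at 19.9 h.

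Nr1d1, the repressor of Arntl, differed widely among libraries of the same time. It stood at 4.41, 3.50 and 4.87 log2 CPM at ZT0, at 6.39, 6.52, 6.26 and 7.01 at ZT4 and at 6.26, 6.12 and 6.51 at ZT8. At ZT12 it stood at 7.32, 3.96 and 4.51, at ZT16 at 2.15, 7.35 and 1.21, and at ZT20 at 1.83, 2.94, 3.47 and 0.89. The highest values of the arm were those of ZT12 replicate 1 and ZT16 replicate 2. With all libraries the peak was at 6.9 h with an amplitude of 2.08 (SE 0.377), and without that pair at 5.8 h. Nr1d1 shares its end with Thra on the other strand, and the sources used here do not give whether counting used strand. Its relative Nr1d2 ranged 7.85-fold and peaked at 8.5 h, with an adjusted p of 3.53e-07.

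Among the repressors of the negative arm, Per3 and Cry1 were nearly opposite in time. Per3 stood at 0.89 to 1.27 log2 CPM at ZT0, 4.98 to 6.70 at ZT4, 6.20 to 6.54 at ZT8, 4.48 to 6.08 at ZT12, 3.30 to 5.31 at ZT16 and 1.97 to 2.89 at ZT20. It rose by 4.68 units from ZT0 to ZT4 (SE 0.592, adjusted p 7.93e-08) and peaked at 9.4 h. Cry1 stood at 5.08 to 5.24 at ZT0, 2.48 to 3.07 at ZT4, 2.63 to 3.24 at ZT8 and 5.36 to 6.01 at ZT20. In between, its libraries read 2.59, 4.75 and 5.15 at ZT12 and 5.73, 3.01 and 5.81 at ZT16, with the same pair low. Its cosine peaked at 19.2 h with all libraries and at 18.1 h without that pair. Per1 and Cry2 peaked at 11.3 h and 10.2 h, with ranges of 7.35-fold and 1.69-fold. Per2 had its highest mean at ZT12 (6.20 log2 CPM) and its lowest at ZT20 (5.16), and its adjusted p was 0.211.

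Of the remaining factors, Tef, which acts at D-boxes like DBP, ranged 7.37-fold with a peak at 9.6 h. Nfil3, the D-box repressor, ranged 4.33-fold with a peak at 19.4 h. Hlf had a range of 0.31 log2 units and an adjusted p of 0.909. Of 17 further clock-linked genes measured, 9 were called (52.9%, beside 11.4% of all genes). Ciart, a repressor of the CLOCK and ARNTL pair, had an amplitude of 2.40 (SE 0.349) and a peak at 9.2 h, and Bhlhe41, a repressor at E-boxes, had its highest means at ZT8 (2.73) and ZT4 (2.58).

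**Figure D3:**
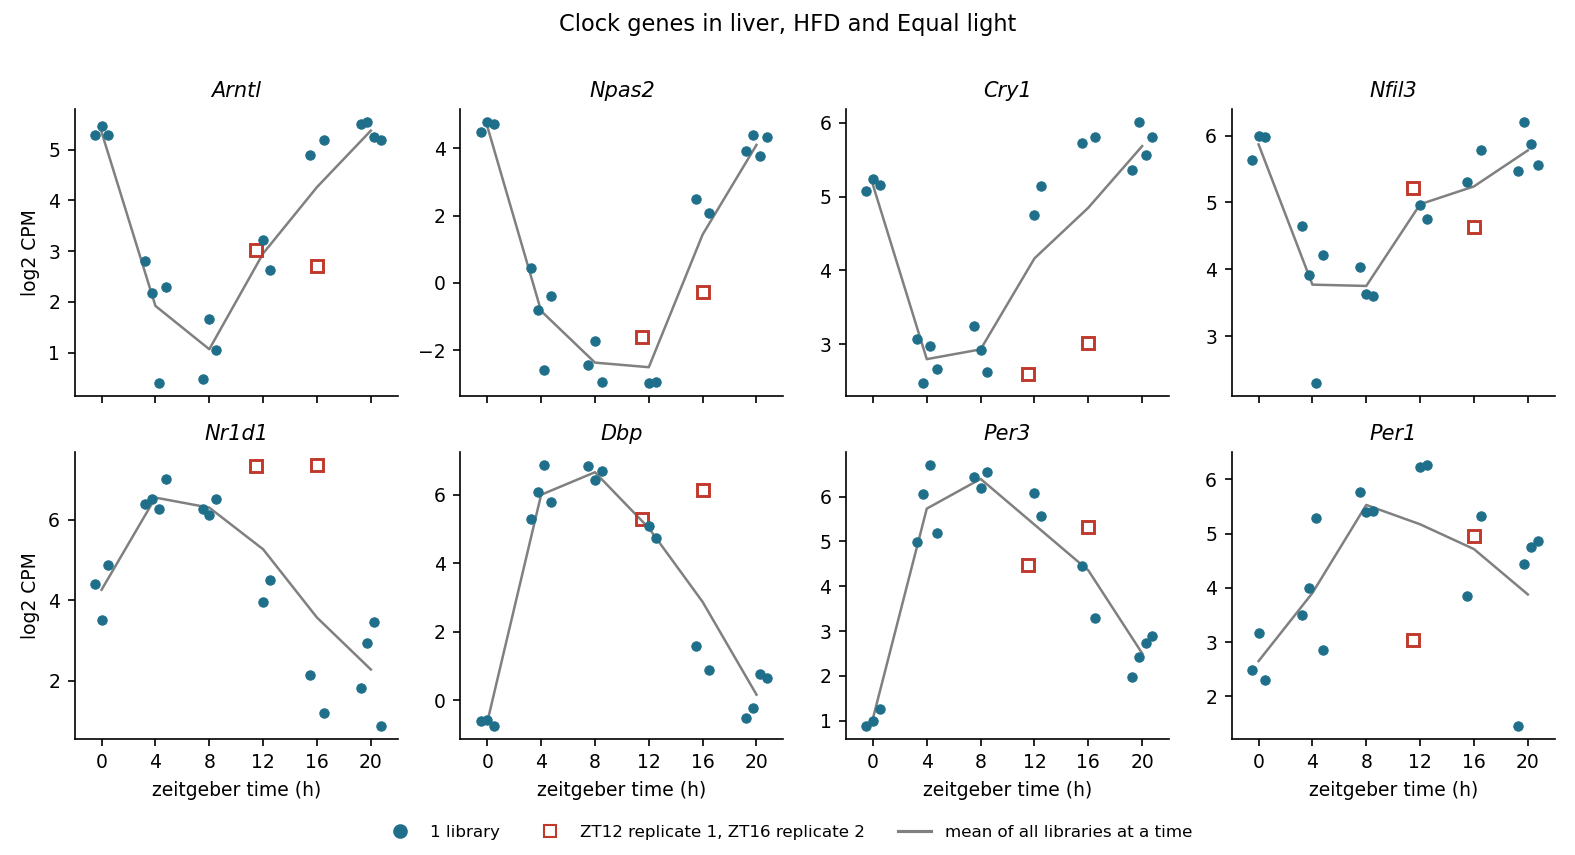
Log2 CPM (y axis) of 8 clock genes against zeitgeber time in hours. Each point is 1 library, shifted sideways within its time, open squares are ZT12 replicate 1 and ZT16 replicate 2, and the line joins the means of all libraries. Dbp and Per3 are high from ZT4 to ZT12, Arntl, Npas2 and Cry1 are high at ZT20 and ZT0, and ZT16 replicate 2 (Nr1d1 7.35) lies with the libraries at ZT4.

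Promoter sequence was read for the clock genes because these genes turn each other on and off through known elements. The windows come from RefSeq on build GRCm38.p6 and span 250 bases before to 50 after the annotated start. Of 14389 tested gene symbols, 10769 had a window. The motifs searched, on both strands, were the E-box CACGTG, the D-box TTATGTAA, the core of the ROR and REV-ERB element TAGGTCA, the cyclic AMP response element (CRE) TGACGTCA and the heat shock element. The E-box and the CRE read the same on both strands, and the first letters of the E-box can overlap the end of the ROR and REV-ERB core or of the CRE. For 6 clock genes with a match before the start, the 250 bases before it are given 5′ to 3′ on the gene's strand, with the matching letters in capitals.
Ciart, chr3:95882229-95882478, minus strand, E-box: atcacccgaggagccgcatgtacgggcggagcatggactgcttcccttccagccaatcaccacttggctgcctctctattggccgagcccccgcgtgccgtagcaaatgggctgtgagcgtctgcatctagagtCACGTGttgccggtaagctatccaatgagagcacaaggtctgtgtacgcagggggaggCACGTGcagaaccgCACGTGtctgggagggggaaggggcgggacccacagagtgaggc
Per1, chr11:69098699-69098948, plus strand, E-box: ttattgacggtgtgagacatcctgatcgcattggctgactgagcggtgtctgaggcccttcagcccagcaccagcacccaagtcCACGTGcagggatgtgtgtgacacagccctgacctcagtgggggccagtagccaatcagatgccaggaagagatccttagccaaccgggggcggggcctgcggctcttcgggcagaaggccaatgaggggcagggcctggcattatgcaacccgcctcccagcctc
Tef, chr15:81802423-81802672, plus strand, E-box: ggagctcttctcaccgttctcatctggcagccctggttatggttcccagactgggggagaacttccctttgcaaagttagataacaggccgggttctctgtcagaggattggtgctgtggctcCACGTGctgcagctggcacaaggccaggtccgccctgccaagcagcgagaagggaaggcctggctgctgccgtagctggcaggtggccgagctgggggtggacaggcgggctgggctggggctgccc
Cry1, chr10:85185055-85185304, minus strand, E-box: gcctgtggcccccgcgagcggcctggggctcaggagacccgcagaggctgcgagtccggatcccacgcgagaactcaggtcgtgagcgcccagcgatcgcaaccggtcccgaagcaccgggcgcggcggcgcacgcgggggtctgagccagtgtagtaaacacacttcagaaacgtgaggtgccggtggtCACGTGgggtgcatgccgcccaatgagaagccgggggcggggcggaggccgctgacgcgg
Per3, chr4:151044666-151044915, minus strand, D-box: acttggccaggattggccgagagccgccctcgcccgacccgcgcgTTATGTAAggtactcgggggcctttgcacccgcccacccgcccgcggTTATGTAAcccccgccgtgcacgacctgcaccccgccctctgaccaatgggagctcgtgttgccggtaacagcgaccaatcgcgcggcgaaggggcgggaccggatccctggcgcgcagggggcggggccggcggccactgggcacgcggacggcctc
Nfil3, chr13:52981040-52981289, minus strand, ROR and REV-ERB core, read on the other strand: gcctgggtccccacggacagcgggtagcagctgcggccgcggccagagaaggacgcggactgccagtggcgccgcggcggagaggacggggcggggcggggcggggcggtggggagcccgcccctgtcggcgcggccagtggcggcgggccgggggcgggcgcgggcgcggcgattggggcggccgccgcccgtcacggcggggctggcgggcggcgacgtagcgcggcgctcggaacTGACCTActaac

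Ciart carries 3 E-boxes, of which the nearest begins 44 bases before the start, and Per3 carries 2 D-boxes, at 205 and 158 bases. Genes with E-boxes in this set did not share 1 time: Ciart, Tef and Per1 peaked at 9.2, 9.6 and 11.3 h, and Cry1 at 19.2 h. Nfil3, whose match to the ROR and REV-ERB core begins 12 bases before the start, peaked at 19.4 h. Arntl, with a match to that core 30 bases after the start, peaked at 20 h. Hlf, with a CRE, and Bhlhe41, with an E-box, also had a match before the start, and their sequences are not printed. Of the 13 core clock genes with a window, 3 held an E-box and 2 the ROR and REV-ERB core (2.54% of all genes tested held that core). An E-box was found in the window of 16.9% of called genes with the highest mean at ZT8, 16.1% at ZT4, 16.4% at ZT0, 11.7% at ZT12, 7.5% at ZT16 and 10.4% at ZT20, beside 11.5% of all genes tested. A D-box was found in 7 of 332 genes highest at ZT8 (2.11%), beside 0.734% of all genes tested. A CRE was found in 44 of 1282 called genes (3.43%), beside 3.38% of all genes tested, and in 5 of the 40 highest at ZT16. These shares describe letters in a short window, not binding.

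The 6 genes with the widest range at each time, among called genes whose mean over the arm reached 2 log2 CPM and whose highest and lowest groups did not overlap, show the order of the day. At ZT0 these were Loxl4, a lysyl oxidase of the matrix, the intracellular channel protein Clic3, the fatty acid elongase Elovl3, the nuclear receptor Ppard, the receptor kinase Grk5 and the tubulin Tubb2a. Elovl3 stood at 9.78, 10.31 and 10.02 log2 CPM at ZT0, at 6.20 to 7.82 at ZT4, 5.63 to 6.48 at ZT8, 7.66 to 7.88 at ZT12, 7.80 to 10.04 at ZT16 and 9.69 to 10.22 at ZT20. The libraries at ZT0 and ZT20 overlapped, and all lay above every library from ZT4 to ZT12. Its range was 14.5-fold and the peak was at 20.3 h. Ppard fell by 3.35 units from ZT0 to ZT4 (SE 0.516, adjusted p 8.32e-06), and its means from ZT4 to ZT16 then lay between 2.82 and 4.07. Loxl4 ranged 16.5-fold, Clic3 15.4-fold, Grk5 8.22-fold and Tubb2a 7.70-fold, with cosine peaks from 20 h to 21.9 h.

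At ZT4 the widest ranges were those of Nr1d1, the G protein subunit Gnat1, the DNA helicase Blm, the membrane adaptor Ank3, Klhdc7a and the receptor Tnfrsf19. Gnat1, known for its role in rod photoreceptors, stood at 4.77 to 5.02 log2 CPM at ZT0, 6.18 to 6.99 at ZT4, 6.06 to 6.85 at ZT8, 4.61 to 5.69 at ZT12 and 3.63 to 4.77 at ZT20. At ZT16 it stood at 4.11, 6.41 and 3.45, where replicate 2 again lay with ZT4. Every library at ZT4 and ZT8 lay above every library at ZT0, ZT12 and ZT20. The ranges of Gnat1, Blm, Ank3, Klhdc7a and Tnfrsf19 lay between 2.78-fold and 5.39-fold, and their cosine peaks between 5.4 h and 7.5 h.

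At ZT8 the genes after Dbp and Per3 were Usp2, a deubiquitinase of the clock system, Hamp, the precursor of the iron hormone hepcidin, the uridine phosphorylase Upp2 and the mitotic kinase Wee1. Upp2 stood at 5.22 to 5.82 log2 CPM at ZT0, 7.5 to 9.08 at ZT4, 8.28 to 9.66 at ZT8 and 5.55 to 6.50 at ZT20. Its libraries read 6.65, 9.25 and 9.31 at ZT12 and 7.13, 8.64 and 6.23 at ZT16, so that replicate 1 was low at ZT12 and replicate 2 high at ZT16. Its range was 11.6-fold with a peak at 9.2 h. Hamp ranged 11.9-fold, but its low mean at ZT0 came from libraries at 1.52, 7.60 and 6.62, of which 1 stood apart, and mouse has a near-identical second copy that can share its reads. Usp2 ranged 16.7-fold and Wee1 8.35-fold, both lowest at ZT0.

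At ZT12 the genes were Por, the reductase that feeds electrons to cytochromes P450, the lipase inhibitor Angptl4, the glucocorticoid target Fkbp5, the glycolytic regulator Pfkfb3, the ganglioside enzyme St3gal5 and the monooxygenase Fmo2. Fkbp5 stood at 3.70 to 4.23 log2 CPM at ZT0, 4.08 to 4.98 at ZT4, 4.49 to 5.07 at ZT8 and 4.36 to 4.78 at ZT20. It read 4.80, 6.74 and 7.22 at ZT12 and 6.12, 4.41 and 4.79 at ZT16. Values above 5.07 were found in 2 libraries at ZT12 and 1 at ZT16. With all libraries kept, Por had the purest daily cosine of these genes. The 24 h part held 99.3% of its variation between time means, with a 6.61-fold range and a peak at 11 h. Por read 7.26, 9.81 and 9.66 at ZT12, where replicate 1 was low. At ZT20 it read 4.87 in replicate 1 and 6.76 to 7.08 in the others. Angptl4 ranged 5.0-fold, Pfkfb3 3.59-fold, St3gal5 3.29-fold and Fmo2 3.14-fold.

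With all libraries kept, ranges at ZT16 were smaller. The 6 genes were the ephrin receptor Epha2, the innate immune regulator Nlrp12, the cytidine deaminase Cda, the transcription elongation inhibitor Hexim1, the zinc finger gene Zfp574 and the kinase Tesk1, with ranges of 1.73-fold to 3.10-fold. Hexim1 stood at 5.66 to 5.75 log2 CPM at ZT0, 4.25 to 5.36 at ZT4, 4.72 to 5.21 at ZT8, 5.28 to 5.93 at ZT12, 5.40 to 6.0 at ZT16 and 5.17 to 5.84 at ZT20. Its libraries at ZT16 overlapped those at ZT12, ZT0 and ZT20, and the lowest time was ZT4, as for 5 of the 6 genes. Without ZT4 replicate 2 and ZT20 replicate 1 the adjusted p was 0.292 for Zfp574, 0.104 for Tesk1 and 0.0758 for Cda. ZT16 replicate 2, whose clock genes lay nearest to ZT4, entered every mean at ZT16 and the rule of no overlap. Without that library 366 called genes were highest at ZT16 in place of 48, and its part in the small ranges was not tested.

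At ZT20 the genes besides Arntl and Cry1 were the cell cycle inhibitor Cdkn1a, the choline kinase Chka, the pyruvate dehydrogenase kinase Pdk4 and the mitochondrial protease subunit Clpx. Chka, which opens phosphatidylcholine synthesis, stood at 7.34 to 7.66 log2 CPM at ZT0, 4.29 to 5.30 at ZT4, 3.81 to 4.43 at ZT8, 5.18 to 5.90 at ZT12 and 7.5 to 8.44 at ZT20. It read 6.91, 5.08 and 6.98 at ZT16. The libraries at ZT20 and ZT0 lay above all others, and the range was 12.6-fold with a peak at 20.4 h. Cdkn1a ranged 18.3-fold, Pdk4 9.52-fold and Clpx 6.92-fold, with peaks from 20.1 h to 20.7 h. From ZT0 to ZT4 Cdkn1a, Chka and Clpx fell by 3.05, 2.57 and 1.82 log2 units.

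**Figure D4:**
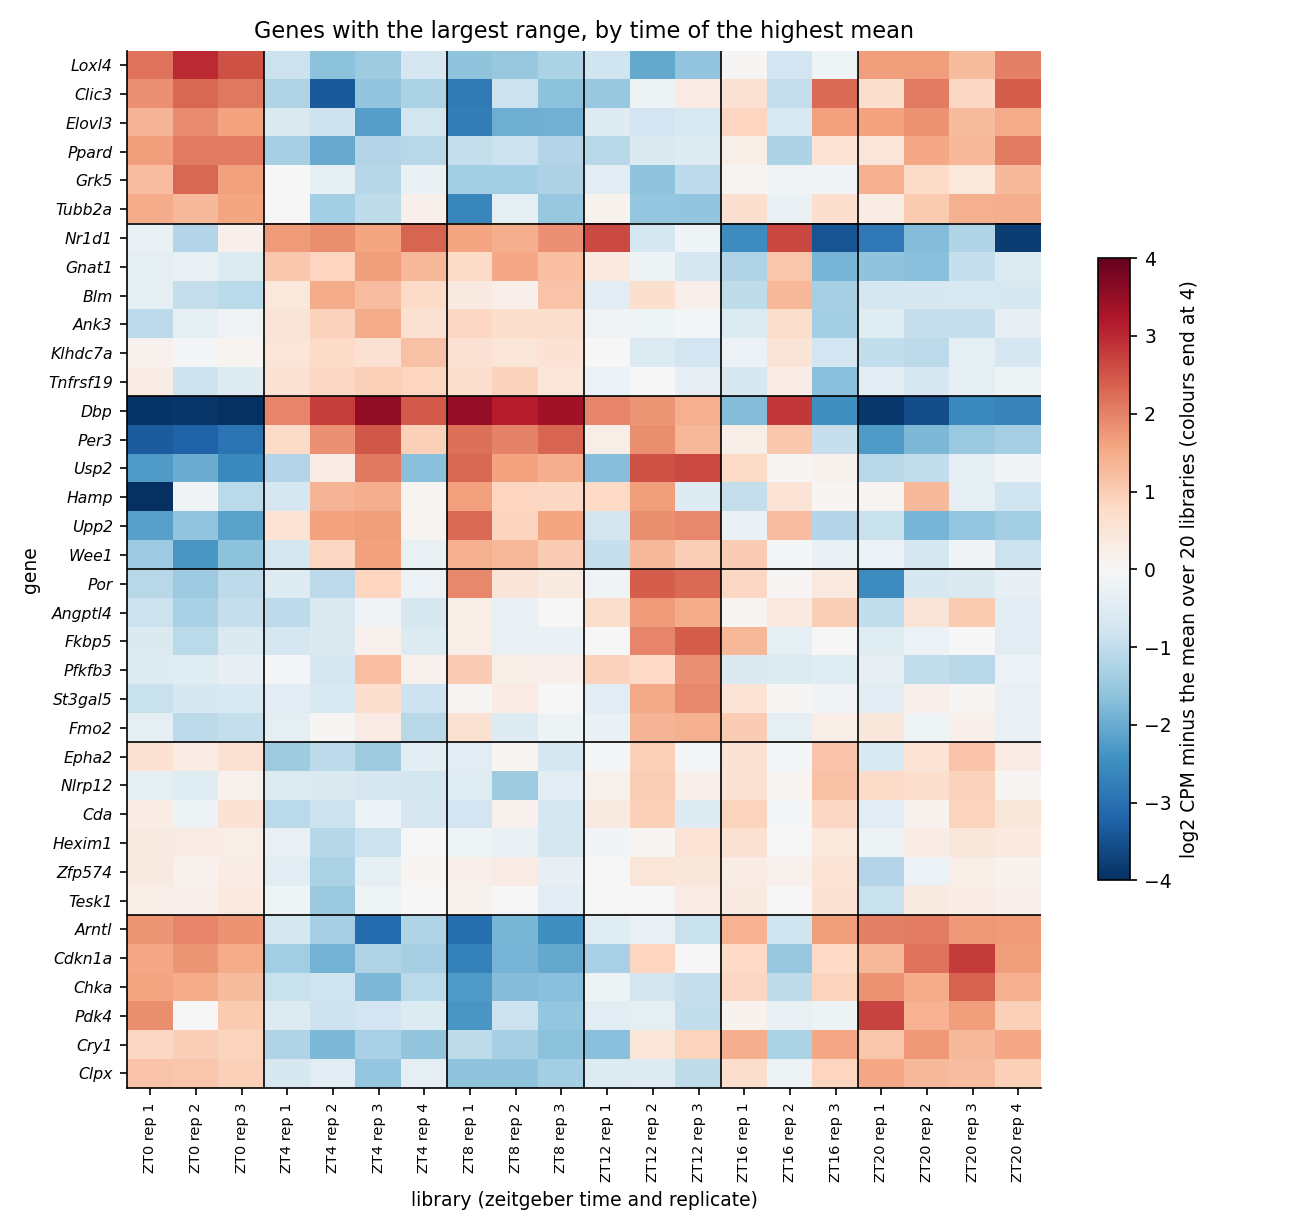
Heat map of the genes with the widest range at each time (6 rows per time, in the order ZT0 to ZT20) in the 20 libraries, coloured by log2 CPM minus the gene's mean over the libraries, with colours ending at 4 units. Genes highest at ZT0 and ZT20 are high in the same libraries, and ZT16 replicate 2 carries the colours of ZT4 for Nr1d1 (7.35) and Dbp (6.14).

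Lists of genes by function were then read for how many members were called and when they were highest. The count of each list is set beside the 11.4% of all genes called in the time effect, or 19.8% without the clock pair, 5.47% without the GC pair and 10% after the GC trend was removed, and a count under these settings is given where it moved by over 1.5 times. Of 21 fatty acid synthesis genes 2 were called (4 without the clock pair), Elovl3 and Insig2, which encodes an inhibitor of SREBP processing. Insig2 stood at 9.0 to 9.35 log2 CPM at ZT0, 7.05 to 8.44 at ZT4, 6.21 to 7.63 at ZT8, 7.46 to 7.98 at ZT12, 8.13 to 8.95 at ZT16 and 9.05 to 9.90 at ZT20. All 7 libraries at ZT20 and ZT0 lay above those from ZT4 to ZT16, with a 20.7 h peak and an adjusted p of 3.87e-05. Srebf1, the lipogenic regulator, had its highest mean at ZT8 (10.09) and its lowest at ZT20 (8.42), with an adjusted p of 0.0515. At ZT20 it read 6.77 in replicate 1, of the GC pair, and 8.66 to 9.56 in the others, beside 8.22 to 9.21 at ZT16.

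Triglyceride synthesis had 3 of 10 members called (5 without the clock pair), with Lpin2 and Lpin3, phosphatidate phosphatases, highest at ZT8 and the acyltransferase Gpat4 at ZT12. Lpin1 had means of 7.83 at ZT8 and 7.82 at ZT12 against 6.27 at ZT0, and its libraries at ZT12 read 5.90, 8.26 and 9.31. Its adjusted p was 0.0987 with all libraries and 0.0041 without ZT12 replicate 1 and ZT16 replicate 2. Of 30 fatty acid oxidation genes 4 were called, all highest at ZT20, and 8 without the clock pair, 2 without the GC pair and 2 after the GC trend was removed. The 4 included Pdk4, the acyl-CoA thioesterase Acot1 and Etfdh, the entry of electrons from fat oxidation into the respiratory chain. Acot1 ranged from a mean of 2.64 at ZT4 to 4.72 at ZT20, and it has close copies with which reads can be shared. Of 19 lipid droplet genes 4 were called (2 without the GC pair), and Plin5, a droplet coat protein, was lowest at ZT4 (4.56) with means of 5.83 to 6.0 from ZT12 to ZT0.

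Of 25 cholesterol synthesis genes 1 was called, against 11.4% of all genes: Stard4, a sterol carrier, with its highest mean at ZT4 (7.91 log2 CPM) and an adjusted p of 0.029. The count was 3 without the clock pair and 0 without the GC pair. The 25 members had a median amplitude of 0.503 log2 units and a median range of 1.14, beside 0.15 and 0.458 over all genes. Of 19 bile acid genes 5 were called (8 without the clock pair). Abcg5 and Abcg8, which together pump sterols into bile, ran in parallel: Abcg8 had means of 6.75, 7.38, 7.64, 7.48, 6.64 and 6.28 from ZT0 to ZT20, and Abcg5 had means of 6.50, 7.20, 7.39, 7.32, 6.55 and 6.26. Their cosines peaked at 8.0 h and 8.3 h. Baat, which conjugates bile acids, was highest at ZT20 with a range of 0.65 log2 units.

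Of 24 glycolysis and glycogen genes 6 were called (10 without the clock pair). Ppp1r3c and Ppp1r3g, which bring protein phosphatase 1 to glycogen, were opposite: Ppp1r3c stood at 8.08 to 8.32 log2 CPM at ZT0 and 4.93 to 5.88 at ZT8, and Ppp1r3g at -3.61 to -2.57 at ZT0 and 0.72 to 2.27 at ZT12. Ppp1r3g was at the floor in 2 of 3 libraries at ZT0, so that no fold is given. The liver glycogen synthase Gys2 rose by 0.93 units from ZT0 to ZT4 and had its highest mean at ZT8 (8.22). Of 20 gluconeogenesis and fasting genes 1 was called, the transcription factor Foxo3, highest at ZT8, with an adjusted p of 0.0351. The count was 4 without the clock pair and 0 without the GC pair, and ZT20 replicate 1 was low for Foxo3 at its lowest time (5.03 log2 CPM). After the GC trend was removed the adjusted p of Foxo3 was 0.128.

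Of 25 amino acid catabolism genes 7 were called, and 14 without the clock pair, 2 without the GC pair and 3 after the GC trend was removed. Gldc, a subunit of the glycine cleavage system, was highest at ZT0 (8.64) and lowest at ZT8 (7.12), with an adjusted p of 1.05e-07. Sds, which breaks down serine, was highest at ZT8 (8.16) and lowest at ZT20 (6.16). Of 20 methionine and one-carbon genes 5 were called, and 8 without the clock pair and 3 without the GC pair. Bhmt, which regenerates methionine from homocysteine with betaine, stood at 10.69 to 11.03 log2 CPM at ZT0, 10 to 10.49 at ZT4, 9.74 to 10.29 at ZT8 and 11.11 to 11.48 at ZT20. It read 8.87, 10.59 and 10.56 at ZT12 and 11.16, 10.67 and 11.2 at ZT16. The libraries at ZT20 lay above all those at ZT4, ZT8 and ZT12, and its means ranged 2.41-fold with an adjusted p of 0.000895. Gclc, which begins glutathione synthesis, was also highest at ZT20. Of 16 NAD genes 4 were called (2 without the GC pair), with highest means at ZT8 for Nadsyn1, Qprt and Nmnat3 and at ZT12 for the riboside kinase Nmrk1.

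Drug metabolism had 7 of 22 members called, with Por at ZT12 and the esterase Ces1d, the glutathione transferase Gsta3 and the sulfotransferase Sult1a1 at ZT20. Ces1d and Gsta3 belong to families of close copies whose reads counting can split. Glucocorticoid-responsive genes had 6 of 17 called. Tsc22d3 (GILZ), a classical target, stood at 6.64 to 6.86 log2 CPM at ZT0, 5.47 to 5.81 at ZT4, 5.61 to 6.08 at ZT8 and 6.46 to 7.68 at ZT20. It read 5.91, 7.69 and 8.19 at ZT12 and 6.61, 6.23 and 7.69 at ZT16, so that ZT12 replicate 1 lay near the libraries at ZT4 and ZT8. Of 20 insulin and growth factor genes 3 were called, Stat5a, Stat5b and Irs1, all highest at ZT0, and 5 without the clock pair.

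**Figure D5:**
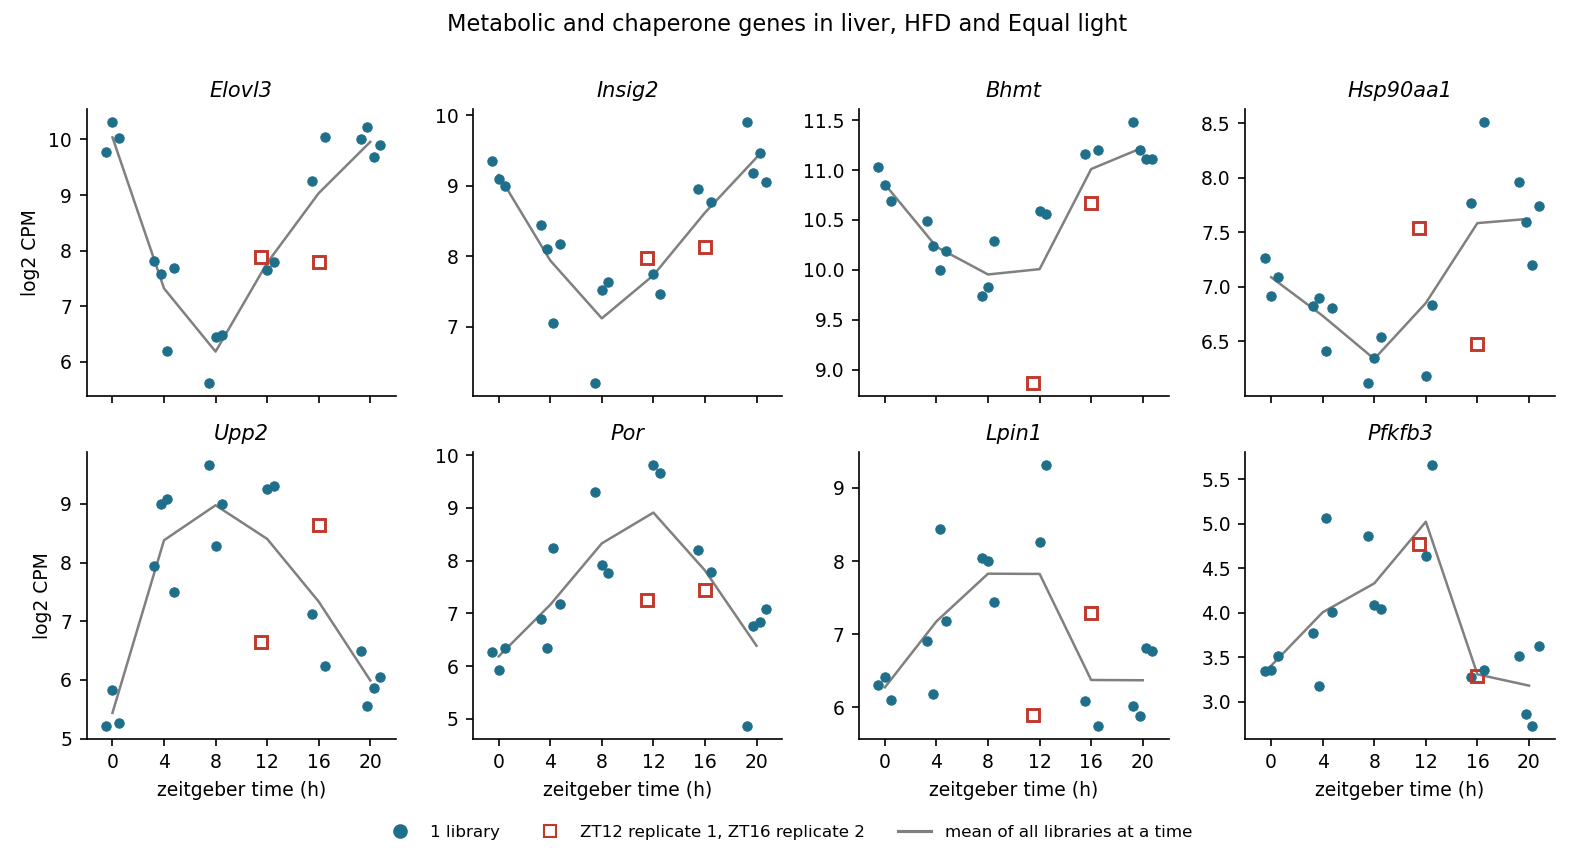
Log2 CPM (y axis) of 8 metabolic and chaperone genes against zeitgeber time in hours, drawn as for the clock genes. Elovl3 and Insig2 have their lowest mean at ZT8, Upp2 has its highest at ZT8 and Por at ZT12, and ZT16 replicate 2 has Hsp90aa1 at 6.47 where the other libraries of that time have 7.77 and 8.51.

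Of 19 heat shock genes 3 were called in the time effect and 10 in the 24 h cosine (52.6%, beside 16.1% of all genes), with 6 cosine peaks near ZT20 and 4 near ZT16. Hsp90aa1 stood at 6.91 to 7.26 log2 CPM at ZT0, 6.41 to 6.90 at ZT4, 6.12 to 6.54 at ZT8, 6.18 to 7.54 at ZT12 and 7.20 to 7.96 at ZT20. It read 7.77, 6.47 and 8.51 at ZT16. Libraries at ZT20 lay above those at ZT4 and ZT8, and the time effect had an adjusted p of 0.0276. Without the clock pair 15 of the 19 were called in the time effect, when 19.8% of all genes were, and without the GC pair 0, when 5.47% of all genes were. Of 22 unfolded protein response genes 2 were called in the time effect, Ddit3 (CHOP) and Sel1l, and 10 in the cosine, 9 of these with peaks near ZT20. The time effect was called for 10 of the 22 without the clock pair, for 0 without the GC pair and for 1 by limma-voom. The heat shock element was found in the window of 4 of 15 heat shock genes, beside 0.539% of all genes tested.

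Of 26 respiratory chain subunits 1 was called, of 7 genes of the mitochondrial genome 0, of 27 proteasome subunits 2, and of 24 secretory pathway genes 0. Without the clock pair these counts were 1, 1, 8 and 6, and without the GC pair 0, 0, 1 and 0. After the GC trend was removed they were 0, 0, 1 and 0. At an unadjusted p under 0.05 limma held 3 of the 7 mitochondrial and 6 of the 24 secretory genes, beside 4232 of the 14397 genes tested. After adjustment limma-voom called 1 mitochondrial and 0 secretory genes. For the genes of the mitochondrial genome and the secretory pathway the median amplitudes were 0.148 and 0.0994 log2 units, beside 0.15 over all genes. Of 28 cytosolic ribosomal proteins 3 were called, all highest at ZT12, and 19 had an unadjusted p under 0.05. The count called was 0 without the GC pair and 1 after the GC trend was removed. The part of the GC trend in it was not tested. Of 22 ribosome biogenesis genes 3 were called, also all at ZT12, namely Polr1a, Nolc1 and Rrp12, and 11 had an unadjusted p under 0.05. The count called was 0 without the GC pair, and ZT4 replicate 2 was low for Nolc1 (4.02 log2 CPM). Of 24 autophagy genes 6 were called, among them Map1lc3b and Bnip3, both highest at ZT12, and 2 were called without the GC pair and 2 after the GC trend was removed.

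Of 12 stellate cell, 11 endothelial, 15 macrophage and 7 hepatocyte markers 0 were called in the time effect by limma or by limma-voom, and 1, 1, 0 and 0 had an unadjusted p under 0.05. Of 9 lymphocyte, 3 neutrophil, 5 adipocyte and 7 blood markers 0 were called by either, and 0, 0, 1 and 0 had an unadjusted p under 0.05. Over all 14397 genes tested, 4232 had an unadjusted p under 0.05. Of 6 cholangiocyte markers 2 were called, Sox9 and Krt7 (1 without the GC pair and 1 after the GC trend was removed). Sox9, which marks bile duct and some periportal cells, was highest at ZT0 (3.47) and lowest at ZT12 (1.67). Sox9 is also on the list of periportal markers and was counted in both. Of 13 periportal markers 4 were called (2 without the GC pair) and of 14 pericentral markers 1 (2 without the clock pair and 2 after the GC trend was removed), Lgr5, which was highest at ZT0 (3.80) and lowest at ZT12 (2.46). Bulk tissue was sequenced, so that fewer cells of a type and less RNA per cell cannot be told apart.

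Most called genes followed a 24 h cosine more than any faster component, and departures from it rarely passed a test. The 24 h part held a median of 80.4% of the variation between time means of called genes, beside 55.3% over all genes. It was the largest part for 1440 of the 1641, a 12 h part for 120 and an 8 h alternation for 81. A departure from the cosine was called for 1 gene (0.00695%), while 1424 had an unadjusted p under 0.05, and a 12 h component was called for the same 1 gene, with 767 at an unadjusted p under 0.05, beside the 720 that make 5% of the genes tested.

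That gene was Proser2, of little known function (ENSMUSG00000045319, chromosome 2, 6097607 to 6130211, minus strand). It stood at 4.54, 4.64 and 4.91 log2 CPM at ZT0, at 3.44, 3.0, 3.11 and 3.64 at ZT4, at 3.73, 3.55 and 2.99 at ZT8 and at 4.22, 4.34 and 4.60 at ZT12. At ZT16 it stood at 4.46, 3.75 and 4.66, and at ZT20 at 3.72, 4.33, 4.33 and 4.40. The libraries at ZT4 and ZT8 lay below all those at ZT0 and ZT12. Its 24 h part held 50.4% and its 12 h part 46.6% of the variation, with adjusted p-values of 0.0193 for the departure and 0.0156 for the 12 h component. After ZT4 replicate 2 and ZT20 replicate 1 were left out, 0 genes were called in either test.

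Single-time shapes were described without a test. A peak at 1 time, with at least 50% of the range between the highest and the next mean, was found in 45 called genes, of which 15 were at ZT12, 11 at ZT20, 10 at ZT0 and 0 at ZT16. A trough at 1 time was found in 83, of which 30 were at ZT20, 20 at ZT4 and 17 at ZT12. These shapes were counted with all libraries only, so that ZT16 replicate 2 entered each mean at ZT16 and the GC pair those at ZT4 and ZT20. Called genes with any lowest mean at ZT20 numbered 470 of 1641 with all libraries and 128 of 788 without the GC pair. The part of single libraries in the peaks and troughs was not tested. Fkbp5 and St3gal5 were peaks of this kind at ZT12. St3gal5 stood at 6.11, 8.06 and 8.45 log2 CPM at ZT12 and at 5.66 to 7.21 in the libraries at ZT0, ZT4, ZT8 and ZT20. Hamp was the trough at ZT0 described above. Ppard, Npas2 and Cry1 fell by 3.35, 5.5 and 2.36 log2 units from ZT0 to ZT4, and the 24 h part held 73.6%, 95.8% and 89.9% of their variation between time means.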

How the data were processed

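Mouse liver RNA was read by poly(A)-selected, stranded paired-end sequencing, per the labels' protocols. Reads were aligned with STAR to mm10 (GRCm38) and counted with featureCounts of Subread 1.6.2, per the submitters' processing notes. The options are not stated there. The authors deposited log2 CPM values for 15398 genes. The lowest value, -3.61, is the same in every library. Whole reads were recovered within 0.05 of a whole number for 99.47% to 99.66% of values per library, and counting error follows the depths in the report. Among the 24 pairs of libraries of the same time, 0 agreed within sampling noise, with chi-square per degree of freedom of at least 14.33.

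Genes with at least 1 CPM in 3 or more of the 123 libraries were kept (14397). limma 3.58.1 in R 4.3.3, with an intensity trend, fitted 36 group means over all libraries, which gave 87 residual degrees of freedom, and contrasts used the 6 groups of the arm. F tests covered the 6 means, the 24 h cosine, the departure from it and the 12 h component, with Benjamini-Hochberg adjustment over all genes. The fit was tested on simulated data. Genes were matched to GENCODE M21 for 99.91% of rows.

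The members and gene lists were chosen with earlier results of these data known. The text names the 15 clock genes, 6 genes per time by range, genes called for shape, and up to 4 members per list with the smallest p. A few genes that the rule names are not reported here. Alternatives covered scaling, filters, prior count, model, weights, covariate and single libraries. The removal of the GC trend and of the pairs of libraries was added after the data were seen.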

Additional observations from a re-analysis of the deposited data

Results flagged for a closer look

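In groups of 4 libraries (ZT4 and ZT20), 1 library can lie far from the other 3 by Dixon's criterion. Over the 218 genes named by the rule this happened in 53 of 436 groups (12.2%), where chance alone gives about 5%. ZT20 replicate 1 was the far library in 28 of them, low in 22 and high in 6, and ZT4 replicate 2 was low in 12. These are also the libraries with the strongest trend on GC content, and the part of that trend was not tested.

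Among the genes of the report, ZT20 replicate 1 was low for Per1 (1.46 log2 CPM, the others 4.43 to 4.86), Por (4.87, the others 6.76 to 7.08), Tesk1 (2.37), Proser2 (3.72), Lpin3 (1.64), Foxo3 (5.03) and Stat5b (5.79). ZT4 replicate 2 was low for Tesk1 (1.78, the others 3.09 to 3.26), Plin5 (3.52) and Nolc1 (4.02). ZT4 replicate 3, whose clock genes lay nearest to ZT8, was high for Map1lc3b (6.29) and low for Elovl3 (6.20, the others 7.58 to 7.82) and Sel1l (7.31). At ZT20, replicate 2 was high for Gsta3 (10.99) and replicate 3 low for Lgr5 (3.30).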

How the results depend on the processing

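Of the named genes called in the time effect, between 0 and 81 lost their call under the alternatives run, the most when the 20 libraries were fitted alone. Of those that kept it, 0 had a cosine peak moved by over 6 h, and the largest move was 3.45 h. The runs share most libraries, so that this does not show stable timing. The highest mean stayed at the same time for 1030 of 1271 shared calls after the GC trend was removed, and for 765 of 1165 without both pairs of libraries. The counts over all genes also moved, and the cause was not tested. In the fit of the arm alone fewer libraries share the spread, and that spread is the arm's own, and the parts of these cannot be told apart. With the 20 libraries alone the time effect was called for 231 genes, the cosine for 694, the departure and the 12 h component for 0 each, and the step from ZT0 to ZT4 for 95. With array weights these were 3674, 4432, 68, 71 and 1253, with 517 from ZT8 to ZT12 and 426 from ZT12 to ZT16. Without ZT12 replicate 1 and ZT16 replicate 2 they were 2845, 3647, 2 and 4, with 62 and 70 for those later steps. Without ZT4 replicate 2 and ZT20 replicate 1 the time effect was 788, the departure and the 12 h component 0, the first step 210 and ZT8 to ZT12 2. Without all 4 libraries the departure and the 12 h component were 0, and the steps 249, 84 and 100. With the GC trend removed the departure was 0 and ZT8 to ZT12 6. With that and without ZT12 replicate 1 and ZT16 replicate 2 the time effect was 2547, the cosine 3965, the departure 0 and the later steps 100 and 135. A mean log2 CPM of at least 1 gave 1 gene from ZT8 to ZT12. Leaving out each library in turn gave 1143 to 2477 genes for the time effect, 1576 to 2991 for the cosine, 0 to 7 for the departure, 0 to 8 for the 12 h component, 156 to 1431 from ZT0 to ZT4, 0 to 50 from ZT8 to ZT12, 0 to 30 from ZT12 to ZT16 and 0 to 261 from ZT20 to ZT0, where 261 came without ZT20 replicate 4. No paired analysis was possible because the labels number the libraries once through the series and give no replicate number that groups share. With 3 or 4 libraries per time and 16.52 M to 36.27 M reads, a p that misses the threshold does not show that a gene was constant.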
